A study of Mus musculus with 8 samples.

Results

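The genes described here are 10 early-response genes of the serum type, namely the transcription factors Egr1 and Egr2, the nuclear early-response gene Ier2, the survival gene Ier3, the growth inhibitor Btg2, the mRNA-decay proteins Zfp36 and Zfp36l1, the small GTPases Rhob and Gem, and the kinase Sgk1. They were followed through 30 minutes of the cytokine oncostatin M (OSM) in mouse embryonic fibroblasts that had or lacked Stat3. They were chosen by name, with earlier results of these data known, so their shares are not those of a blind choice. Every probe set that the platform annotation ties to 1 of these symbols alone was taken. All 10 were on the array, through 11 of 12422 probe sets, against 8251 genes in all. The levels of 9 genes could be tested, because Gem and the other Egr1 probe set stayed under the log2 floor of 5 on every array.

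Genes of this kind are transcribed within minutes of a growth factor, serum or cytokine signal, from factors already present in the cell. ERK kinases phosphorylate ETS-type partners of the serum response factor SRF, which sits on CArG boxes upstream of many of them, and OSM reaches ERK through gp130 by a branch that runs beside Stat3. The RNAs are short-lived, and in fibroblasts several of their proteins, Zfp36 and Btg2 among them, help to end the response.

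Total RNA came from 4 groups of 2 arrays each. Stat3 KO cells (STAT3-/-) received OSM at 20 ng/ml for 30 minutes or were left untreated, and Stat3 WT cells (STAT3+/+) received the same OSM treatment or were left untreated, all in medium with 10% serum. The protocol text names OSM for every sample, and the treatment was taken from the sample titles. Each genotype is represented by a single fibroblast line that had immortalised spontaneously, so loss of Stat3 and other differences between the lines cannot be told apart. The 2 arrays of each group carry the replicate numbers 2 and 3, and nothing in the labels says whether they are separate cultures, so the p-values given here cover array-to-array spread only, part of which may be technical. Values are log2 GCRMA expression values, and 1 unit is a 2-fold difference.

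The arrays were split more by replicate number than by group. Arrays of the same number correlated at 0.93 to 0.98 across groups, against 0.87 to 0.93 within a group, and the first principal component, with 56.0% of the variance, placed the replicate 3 arrays at 32.5 to 51.5 and the replicate 2 arrays at -54.7 to -48.1, apart from the Stat3 KO OSM replicate 2 array at -19.4. The Stat3 probe set that is brighter on average read 7.81 to 9.17 on the Stat3 KO arrays and 10.11 to 11.94 on the Stat3 WT arrays. The other Stat3 probe set read 7.30 on the Stat3 KO OSM replicate 3 array, against 2.76 to 2.94 on the other Stat3 KO arrays and 9.80 to 12.57 on the Stat3 WT arrays. Both Stat3 KO OSM arrays therefore stand apart in some measure, and results that rest on them are given within each number as well. Of 14 fibroblast markers 11 reached the floor on all arrays, while Thy1 and Vim were under it on all. All 6 leukocyte markers were under it on all arrays, as were 4 of 6 epithelial, 3 of 5 endothelial, 4 of 5 muscle and 3 of 5 neural markers. The endothelial marker Pecam1, the muscle marker Myog and the neural marker Tubb3 reached the floor on all arrays.

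Upstream sequences from RefSeq (GRCm38.p6) were taken for 7 of the 10 genes, in windows of 250 bases before to 50 bases after a gene start. No window was searched for Egr1, Ier2 or Gem, so the motif results do not cover these genes. The sequences of Egr2 and Zfp36, which read higher with OSM in both lines, and of Rhob, which did not, are shown as the 250 bases before the start. Ier3 and Sgk1 also read higher with OSM in both lines, held no CArG box in their windows and are not shown. The part of a CArG box in the OSM differences was not tested. They run 5′ to 3′ on the gene's strand, with a CArG box or a match to the STAT-type motif TTCNNNGAA in capitals. Egr2 lies at chr10:67537619-67537868 on the plus strand, from the middle of its 5 listed starts, Zfp36 at chr7:28379229-28379478 on the minus strand and Rhob at chr12:8500010-8500259 on the minus strand.
Egr2: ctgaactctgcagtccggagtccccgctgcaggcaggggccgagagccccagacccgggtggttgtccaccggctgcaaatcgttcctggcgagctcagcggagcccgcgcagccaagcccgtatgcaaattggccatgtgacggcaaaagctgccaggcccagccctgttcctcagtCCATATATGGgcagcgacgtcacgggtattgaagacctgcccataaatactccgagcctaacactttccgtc
Zfp36: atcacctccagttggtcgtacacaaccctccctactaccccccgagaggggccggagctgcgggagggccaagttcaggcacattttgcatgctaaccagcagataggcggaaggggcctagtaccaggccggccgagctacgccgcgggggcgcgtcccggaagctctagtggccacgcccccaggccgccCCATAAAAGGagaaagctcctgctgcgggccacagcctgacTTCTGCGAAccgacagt
Rhob: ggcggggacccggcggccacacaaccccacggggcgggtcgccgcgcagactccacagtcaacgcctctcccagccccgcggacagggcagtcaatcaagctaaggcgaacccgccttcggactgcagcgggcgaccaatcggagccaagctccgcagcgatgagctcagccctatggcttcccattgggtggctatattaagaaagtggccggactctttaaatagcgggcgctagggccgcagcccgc
The Egr2 stretch holds a CArG box at -72 to -63 from the start, and the Zfp36 stretch holds a CArG box at -58 to -49 and a TTCNNNGAA match at -17 to -9. Rhob holds neither.

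Motifs were searched as exact matches on both strands of the whole 300-base windows, with CCWWWWWWGG as the CArG box, where W is A or T. Near matches were not counted. No match of one motif overlaps a match of another. A CArG box was found for Egr2, in 4 of its 5 windows, and for Zfp36, while 1.63% of the 32851 windows of all genes held one. Some of the Egr2 windows overlap and share the same box, so the 4 are not separate boxes. The shares of all are per window, not per gene, and a gene with several windows has more places for a match. TTCNNNGAA was found for Zfp36 and in 1 of 6 windows of Sgk1, against 8.30% of all windows. The cyclic-AMP element TGACGTCA was found for Btg2 at -166 to -159, against 1.79% of all windows. The ETS-type motif CCGGAA was found for Zfp36 and in 1 Egr2 window, against 14.9% of all. The windows of Ier3, Rhob and Zfp36l1 held none of these letters. A match is a description of the sequence, not of a bound site, and its absence says only that these letters are not in this window.

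After 30 minutes of OSM, Egr1, Egr2, Ier2, Ier3, Zfp36 and Sgk1 read higher than in untreated cells within both replicate numbers and in both lines, 6 of 9 tested genes, as did 13.4% of all tested probe sets. None of the 9 tested genes passed the test over all probe sets in either line. In Stat3 KO cells the limma count was 0 of 9 at an adjusted p under 0.05, where 0% of all 6756 tested probe sets passed, and 2 of 9, Egr2 and Ier2, at an unadjusted p under 0.05, where 2.04% of all probe sets lay. In Stat3 WT cells it was 0 of 9 at an adjusted p under 0.05, against 0% of all probe sets, and 0 of 9 at an unadjusted p under 0.05, against 1.87%. With replicate number as a block 0 of 9 passed in either line at an adjusted p under 0.05, where 0.0296% of all probe sets passed in the Stat3 KO line and 0.0148% in the Stat3 WT line. At an unadjusted p under 0.05 the block gave 4 of 9 in Stat3 KO cells, namely Egr2, Ier2, Ier3 and Zfp36, against 11% of all probe sets. It gave 5 of 9 in the Stat3 WT line, the same 4 genes and Egr1, against 7.18% of all, so the unadjusted counts of the lines order differently with and without the block. The 9 genes had a median log2 difference of 1.61 in the Stat3 KO line and 1.52 in the Stat3 WT line, where the medians over all probe sets were 0.02 for Stat3 KO and -0.04 for Stat3 WT. At least 2-fold higher levels within both replicate numbers were seen for 6 of 9 genes in Stat3 KO cells, against 2.19% of all probe sets, and for 3 of 9 in the Stat3 WT line, against 2.01%. In both lines at once they were seen for 3 of 9, Egr2, Ier3 and Zfp36, and for 0.918% of all probe sets. As in any bulk sample, more responding cells and more RNA per cell cannot be told apart.

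**Figure D1:**
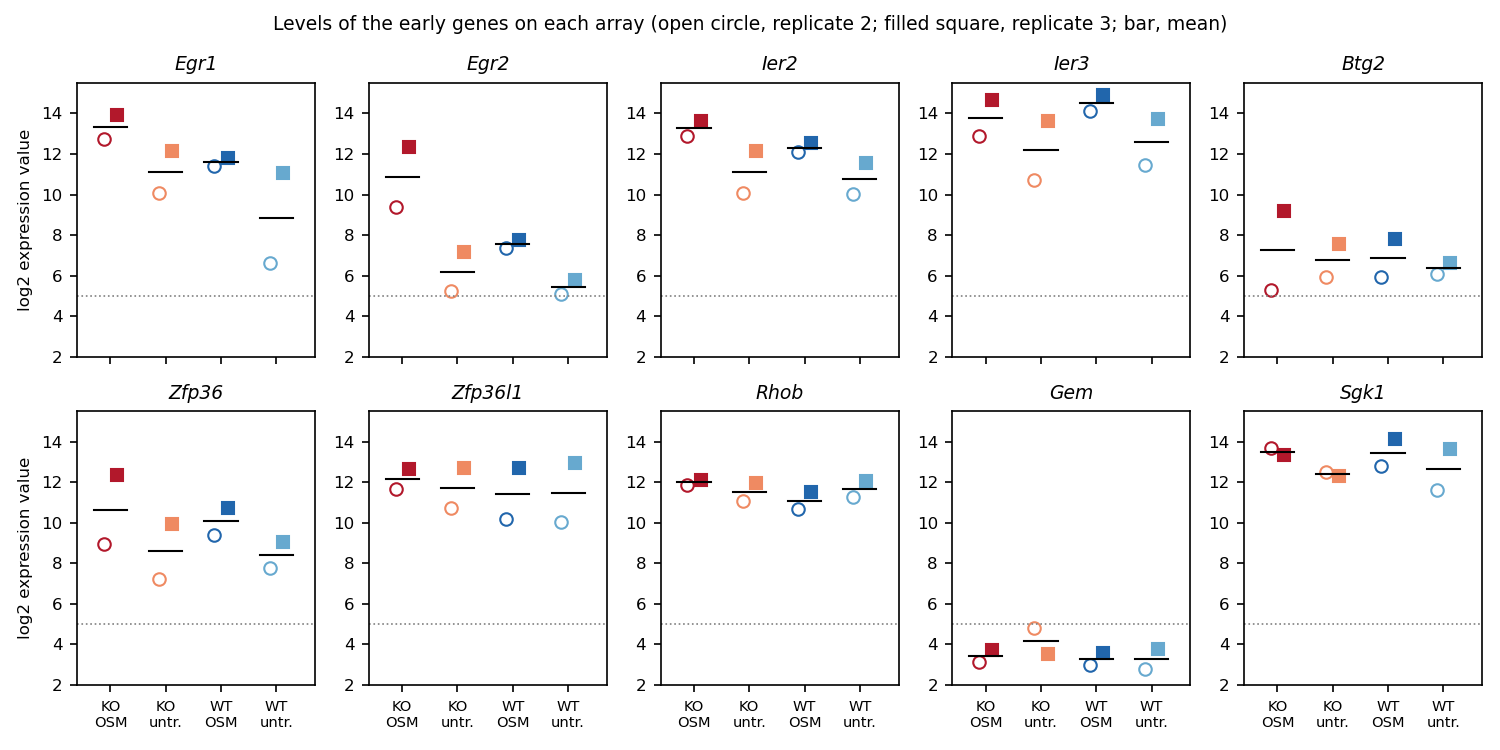
Log2 expression value (vertical axis) of each gene on each array, by Stat3 genotype and treatment, with open circles for replicate 2, filled squares for replicate 3, a bar for the mean of both and a dotted line at the log2 floor of 5. Egr2 reached 9.38 and 12.35 on the Stat3 KO OSM arrays and stayed at or under 7.76 on all others, while Gem lay under the floor throughout.

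Egr1 is a zinc-finger transcription factor and the classic serum-induced gene. It read 12.72 and 13.91 in replicates 2 and 3 of Stat3 KO cells with OSM, against 10.10 and 12.13 in untreated Stat3 KO cells. In Stat3 WT cells it read 11.40 and 11.79 with OSM, against 6.64 and 11.07 without. The groups did not overlap in either line, and the untreated Stat3 WT array of replicate 2 was the lowest of the 8 by more than 3 log2 units. The log2 difference was 2.20 ± 1.46 (SE) in the Stat3 KO line and 2.74 ± 1.46 (SE) in the Stat3 WT line (limma adjusted p = 1 for both). Within replicates 2 and 3 it was 2.62 and 1.79 in Stat3 KO cells, and 4.77 and 0.72 in the Stat3 WT line, so the Stat3 WT value came mainly from replicate 2. Without the untreated Stat3 WT replicate 2 array it was 0.52, and without the untreated Stat3 WT replicate 3 array it was 4.96. Leaving out an array also moved the Stat3 KO value by over 1.5 times, to 1.19 without untreated replicate 2 of that line. The full fit with replicate number as a block gave an SE of 0.92 in each line. Its 95% interval was -0.08 to 4.49 for Stat3 KO and 0.46 to 5.02 for Stat3 WT (limma adjusted p = 0.462 and 0.572). Leaving out 1 array with the block gave 1.66 to 2.75 for Stat3 KO and 1.12 to 4.36 for Stat3 WT. The other Egr1 probe set read 1.27 to 1.75 on the 8 arrays and gave no usable level.

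Egr2, the paralog of Egr1 best known from Schwann cells and the hindbrain, showed the largest OSM difference of the 10 genes in Stat3 KO cells. It read 9.38 and 12.35 with OSM in Stat3 KO cells, against 5.25 and 7.15 without. The Stat3 WT arrays read 7.36 and 7.76 with OSM, against 5.07 and 5.81 without. In each line both OSM arrays lay above both untreated arrays, and the untreated arrays of replicate 2 were close to the floor, so the size of a difference from them is not exact. The mean in Stat3 KO cells was 10.87 ± 2.10 in the OSM group, against 6.20 ± 1.35 in the untreated group (SD, n = 2 each), giving a difference of 4.67 ± 1.08 (SE) or 25.4-fold, the 10th highest of 6756 probe sets (limma adjusted p = 1). In Stat3 WT cells the difference was 2.12 ± 1.08 (SE) or 4.34-fold, the 52nd highest (adjusted p = 1). Within replicates 2 and 3 the difference was 4.13 and 5.20 in Stat3 KO cells and 2.29 and 1.95 in the Stat3 WT line. Without the Stat3 KO OSM replicate 2 array the Stat3 KO difference was 6.16, and without the Stat3 KO OSM replicate 3 array it was 3.18. In the full fit with the block the SE was 0.64 in each line. The interval was then 3.07 to 6.27 for Stat3 KO and 0.52 to 3.72 for Stat3 WT (limma adjusted p = 0.172 and 0.546). Leaving out 1 array with the block gave 3.69 to 5.65 for Stat3 KO and 1.38 to 2.86 for Stat3 WT. The Stat3 KO OSM replicate 3 array, the highest for Egr2, is the one with 7.30 at the other Stat3 probe set, and the part of this in the result was not tested. The Egr2 sequence shown holds a CArG box but no TTCNNNGAA.

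Ier2, a nuclear protein encoded by a gene with a very brief burst of transcription, read higher on both OSM arrays than on both untreated arrays of each line. It read 12.91 and 13.62 with OSM in Stat3 KO cells, against 10.09 and 12.16 without. In the Stat3 WT line it read 12.08 and 12.52 with OSM, against 10.02 and 11.56 without. The log2 difference was 2.14 ± 0.81 (SE) in Stat3 KO cells (limma adjusted p = 1) and 1.52 ± 0.81 (SE) in the Stat3 WT line (adjusted p = 1). It was larger within replicate 2 than within replicate 3 in both lines, at 2.82 and 1.46 in Stat3 KO cells and at 2.07 and 0.97 in the Stat3 WT line. Without untreated replicate 2 of the line it was 1.10 in Stat3 KO cells and 0.75 in the Stat3 WT line. Without untreated replicate 3 it was 3.18 in Stat3 KO cells and 2.28 in the Stat3 WT line. Fitted with the block, the SE was 0.42 in each line. The interval was then 1.10 to 3.18 for Stat3 KO and 0.47 to 2.56 for Stat3 WT (limma adjusted p = 0.325 and 0.482). Leaving out 1 array with the block gave 1.55 to 2.73 for Stat3 KO and 1.02 to 2.02 for Stat3 WT.

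Ier3, also known as IEX-1, modulates cell survival and ERK signalling, and it read lower in Stat3 KO than in Stat3 WT cells within both numbers, with OSM as well as without. With OSM it was the 1 gene of 9 to do so, against 27.4% of all probe sets, and without OSM it was 1 of 2 with Rhob, against 33.7%. Its levels were 12.91 and 14.65 with OSM in Stat3 KO cells, against 10.71 and 13.64 without. In the Stat3 WT line they were 14.11 and 14.91 with OSM, against 11.47 and 13.74 without. The arrays overlapped in Stat3 KO cells, where untreated replicate 3 lay above OSM replicate 2, but not in the Stat3 WT line. The log2 difference was 1.61 ± 1.21 (SE) in Stat3 KO cells and 1.91 ± 1.21 (SE) in the Stat3 WT line (limma adjusted p = 1 for both), and within replicates 2 and 3 it was 2.20 and 1.01 in Stat3 KO cells and 2.65 and 1.16 in the Stat3 WT line. In the fit without the block both values depend on single arrays. The Stat3 KO value was 0.14 without untreated replicate 2 of that line and 3.07 without untreated replicate 3. The Stat3 WT value was 0.77 without untreated replicate 2 and 3.05 without untreated replicate 3. The full fit with the block gave an SE of 0.49 in each line. Its interval was 0.40 to 2.81 for Stat3 KO and 0.70 to 3.11 for Stat3 WT (limma adjusted p = 0.388 and 0.443). Leaving out 1 array with the block gave 0.94 to 2.27 for Stat3 KO and 1.14 to 2.67 for Stat3 WT.

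Zfp36, or tristetraprolin, binds AU-rich elements of cytokine mRNAs and speeds their decay. It read 8.94 and 12.35 with OSM in Stat3 KO cells, against 7.23 and 9.94 without. The Stat3 WT arrays read 9.41 and 10.72 with OSM, against 7.76 and 9.05 without. In Stat3 KO cells untreated replicate 3 lay above OSM replicate 2, so the arrays overlapped, and the Stat3 WT arrays did not overlap. Its OSM difference was the most even of the 9 tested genes between the numbers in the Stat3 WT line, at 1.66 and 1.67 within replicates 2 and 3, and was 1.71 and 2.40 in Stat3 KO cells. The pooled difference was 2.06 ± 1.38 (SE) in the Stat3 KO line and 1.66 ± 1.38 (SE) in the Stat3 WT line (limma adjusted p = 1 for both). The Stat3 KO value was 0.36 without OSM replicate 3 of that line and 3.76 without OSM replicate 2. The Stat3 WT value was 1.01 without OSM replicate 3 and 2.31 without OSM replicate 2. In the full fit with the block the SE was 0.58 in each line. The interval was then 0.62 to 3.50 for Stat3 KO and 0.22 to 3.10 for Stat3 WT (limma adjusted p = 0.384 and 0.595). Leaving out 1 array with the block gave 1.24 to 2.87 for Stat3 KO and 1.07 to 2.25 for Stat3 WT. Zfp36 is also the gene with both a CArG box and a TTCNNNGAA match in the sequence shown. Its paralog Zfp36l1 had OSM differences of 0.93 and -0.03 within replicates 2 and 3 of Stat3 KO cells and 0.17 and -0.24 in the Stat3 WT line, around levels of 10.02 to 12.93. Pooled, these were 0.45 ± 1.28 (SE) in Stat3 KO cells and -0.03 ± 1.28 (SE) in the Stat3 WT line (limma adjusted p = 1 for both). For Zfp36l1 the SE with the block was 0.46. The intervals still held 0, at -0.69 to 1.59 for Stat3 KO and -1.17 to 1.10 for Stat3 WT (limma adjusted p = 0.735 and 0.996).

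Sgk1, the serum- and glucocorticoid-regulated kinase, acts on ion channels and transporters. It read 13.69 and 13.33 with OSM in Stat3 KO cells, against 12.51 and 12.32 without, and these arrays did not overlap. In Stat3 WT cells it read 12.79 and 14.13 with OSM, against 11.63 and 13.64 without, and these overlapped. The log2 difference was 1.09 ± 0.73 (SE) in the Stat3 KO line and 0.82 ± 0.73 (SE) in the Stat3 WT line (limma adjusted p = 1 for both). It was 1.18 and 1.01 within replicates 2 and 3 of Stat3 KO cells, and 1.16 and 0.49 in the Stat3 WT line. Fitted with the block, the SE was 0.61 in each line. The intervals held 0, at -0.43 to 2.62 for Stat3 KO and -0.70 to 2.35 for Stat3 WT (limma adjusted p = 0.538 and 0.913).

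Btg2, an antiproliferative partner of the CCR4-NOT deadenylase, had opposite OSM differences in the replicate numbers. It read 5.31 and 9.20 with OSM in Stat3 KO cells, against 5.93 and 7.57 without. The Stat3 WT arrays read 5.95 and 7.82 with OSM, against 6.08 and 6.64 without. The difference was thus -0.62 and 1.62 within replicates 2 and 3 of Stat3 KO cells and -0.14 and 1.18 in the Stat3 WT line, below 0 in replicate 2 and above 0 in replicate 3 in both lines. Pooled, it was 0.50 ± 1.36 (SE) in Stat3 KO cells and 0.52 ± 1.36 (SE) in the Stat3 WT line (limma adjusted p = 1 for both), smaller than its own error. The SE with the block was 0.75. The intervals then held 0, at -1.35 to 2.36 for Stat3 KO and -1.33 to 2.38 for Stat3 WT (limma adjusted p = 0.83 and 0.996).

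Neither GTPase gene read higher with OSM in both lines. Rhob, a short-lived GTPase of endosomes, read 11.87 and 12.11 with OSM in Stat3 KO cells, against 11.08 and 11.95 without. In the Stat3 WT line it read 10.67 and 11.53 with OSM, against 11.28 and 12.06 without. The OSM difference was 0.79 and 0.16 within replicates 2 and 3 of Stat3 KO cells, and -0.61 and -0.53 in the Stat3 WT line. It was above 0 within both numbers of Stat3 KO cells and below 0 within both of Stat3 WT cells, although the arrays overlapped in each line. Pooled, it was 0.48 ± 0.48 (SE) in Stat3 KO cells and -0.57 ± 0.48 (SE) in the Stat3 WT line (limma adjusted p = 1 for both). The SE with the block was 0.23. The intervals then held 0, at -0.09 to 1.05 for Stat3 KO and -1.14 to 0.002 for Stat3 WT (limma adjusted p = 0.495 and 0.692). Leaving out 1 array gave 0.04 to 0.91 in Stat3 KO cells and -1 to -0.14 in the Stat3 WT line. With the block it gave 0.17 to 0.78 for Stat3 KO and -0.69 to -0.45 for Stat3 WT. Such opposite directions were seen for 1 of 9 genes and for 9.52% of all probe sets. Gem, an RGK-family GTPase that inhibits calcium channels, read 3.14 and 3.73 with OSM and 4.80 and 3.51 without in Stat3 KO cells, and 2.97 and 3.57 with OSM and 2.77 and 3.78 without in the Stat3 WT line. All of these values lie under the floor, so no OSM difference was detectable for Gem on these arrays.

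**Figure D2:**
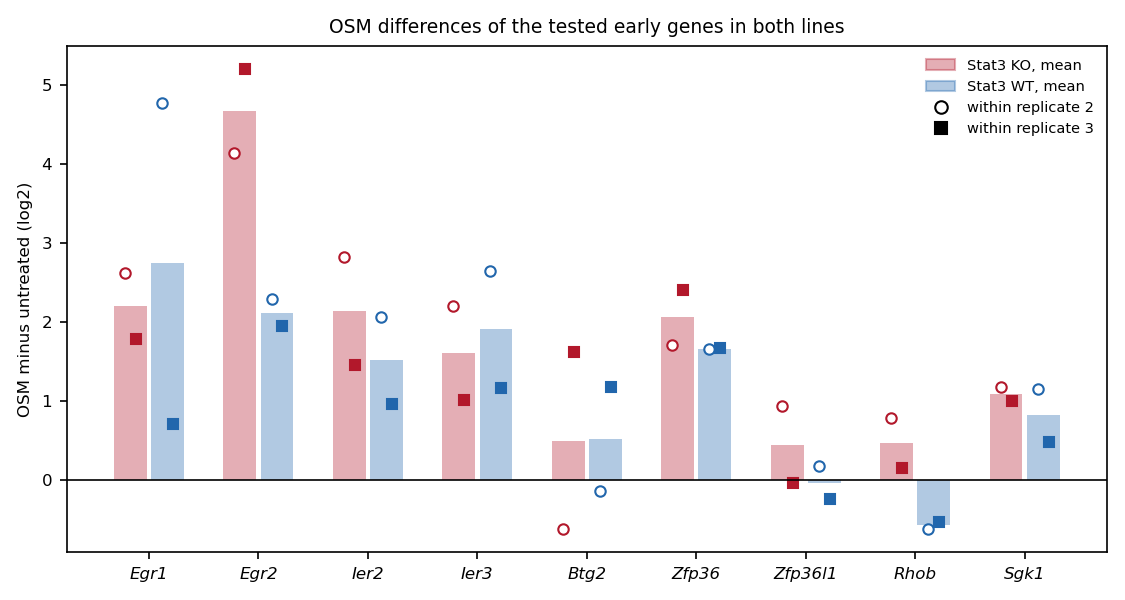
OSM minus untreated (log2, vertical axis) for the 9 tested genes, with red for Stat3 KO and blue for Stat3 WT cells, bars for the mean difference, open circles for the difference within replicate 2 and filled squares for replicate 3. Egr2 in Stat3 KO cells stands at 4.13 and 5.20, above its Stat3 WT values of 2.29 and 1.95, and Rhob is the gene with bars on opposite sides of 0 and all points on the side of their bar.

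Counts of arrays without overlap put the genes against the background of all probe sets. In Stat3 KO cells 4 of 9 genes, Egr1, Egr2, Ier2 and Sgk1, had both OSM arrays above both untreated arrays, as had 14.4% of all tested probe sets. In Stat3 WT cells 5 of 9, Egr1, Egr2, Ier2, Ier3 and Zfp36, had this separation, as had 8.29% of all. It held in both lines for 3 of 9, Egr1, Egr2 and Ier2, and for 3.45% of all probe sets. None of the 9 had both OSM arrays below both untreated arrays, which held for 12.3% of all probe sets in the Stat3 KO line and 9.31% in the Stat3 WT line.

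**Figure D3:**
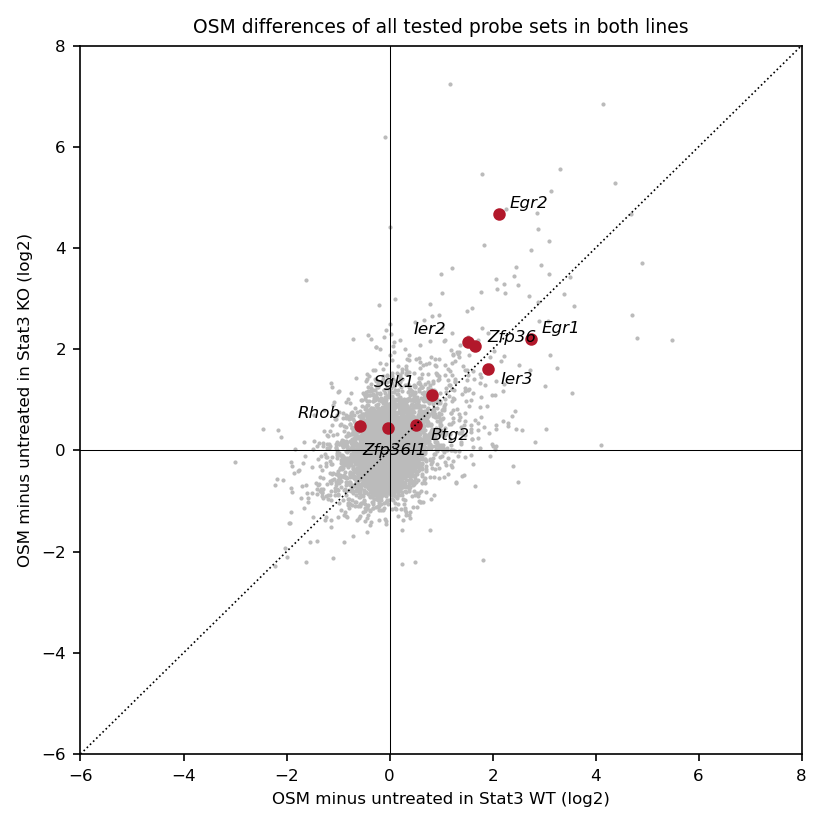
OSM minus untreated (log2) in Stat3 KO cells (vertical axis) and in the Stat3 WT line (horizontal axis) for each of the 6756 tested probe sets (grey) and the 9 tested early genes (red, named), with a dotted line where both lines would be equal. Egr2 lies above the dotted line, at 4.67 in Stat3 KO cells and 2.12 in the Stat3 WT line, and Egr1 lies below it, at 2.20 in Stat3 KO cells and 2.74 in the Stat3 WT line.

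Whether the lines differed in their OSM response was asked by the difference of the 2 OSM effects, Stat3 KO minus Stat3 WT. None of the 9 genes passed (limma 0 of 9 at an adjusted p under 0.05 and 0 of 9 at an unadjusted p under 0.05, against 0% and 0.429% of all probe sets), nor did any at an adjusted p under 0.05 with replicate number as a block, where 0% of all passed. At an unadjusted p under 0.05 the block gave 2 of 9, Egr2 and Rhob, against 3.67% of all probe sets. For Egr2 the difference was 2.55 ± 1.52 (SE), the 15th highest of 6756, with a 95% interval of -1.16 to 6.26 (adjusted p = 1), and it was 1.85 within replicate 2 and 3.26 within replicate 3. With the block its SE was 0.91 and its interval 0.29 to 4.81 (limma adjusted p = 0.913). Egr2 was the gene of the 9 with at least 1 log2 unit in both numbers, which 11 of 31 other tested immediate early genes and 1.42% of all probe sets reached, so this is not particular to Egr2. Without the Stat3 KO OSM replicate 2 array it was 4.04, without the Stat3 KO OSM replicate 3 array 1.06 and without the untreated Stat3 KO replicate 2 array 1.60. Leaving out 1 array with the block gave 1.57 to 3.53. For Egr1 it was -0.54 ± 2.06 (SE), with an interval of -5.56 to 4.49, and it took opposite signs within replicates 2 and 3, at -2.14 and 1.07. For Rhob it was 1.04 ± 0.68 (SE), with an interval of -0.61 to 2.69, and with the block its SE was 0.32 and its interval 0.24 to 1.85 (limma adjusted p = 0.913). The intervals of Ier2 (-2.15 to 3.40), Ier3 (-4.46 to 3.86), Zfp36 (-4.34 to 5.13), Zfp36l1 (-3.92 to 4.89), Btg2 (-4.70 to 4.67) and Sgk1 (-2.23 to 2.77) all held 0 and are wide, so a response that was the same in both lines is not shown.

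Genotype was also compared at each treatment. With OSM, 4 of 9 genes, Egr1, Egr2, Ier2 and Rhob, had both Stat3 KO arrays above both Stat3 WT arrays, against 11.2% of all probe sets, and 0 of 9 had both below, against 13.8%. Limma called 0 of 9 at an adjusted p under 0.05, where 0.0148% of all passed. With replicate number as a block it called 0 of 9 as well, where 0.104% of all passed, and gave 2 of 9, Egr2 and Rhob, at an unadjusted p under 0.05, against 12% of all. The log2 difference with OSM was 3.31 ± 1.08 (SE) for Egr2 (limma adjusted p = 1), the gene of the 9 with an unadjusted p under 0.05, which 3.60% of all probe sets had. For Egr1, Ier2 and Rhob it was 1.72, 0.96 and 0.89, and for Ier3 it was -0.73 (adjusted p = 1 each). Egr1 and Egr2 were at least 2-fold higher in Stat3 KO cells within both numbers, as were 2.04% of all probe sets. Without OSM 0 of 9 genes were separated in either direction, against 6.81% of all probe sets higher and 12.4% lower in Stat3 KO cells, and 0 of 9 passed limma at an adjusted p under 0.05 (0% of all) or an unadjusted p under 0.05 (2.24% of all), and 0 of 9 passed with the block at an adjusted (0% of all) or an unadjusted p under 0.05 (9.67% of all). Untreated Egr1 still read higher in Stat3 KO cells within both numbers, by 3.46 and 1.05, and such a difference of at least 2-fold within both numbers was seen for 0.992% of all probe sets. Pooled, it was 2.26 ± 1.46 (SE), and it was 0.04 without the untreated Stat3 WT replicate 2 array and 4.48 without the untreated Stat3 WT replicate 3 array. Leaving out 1 array with the block gave 0.64 to 3.88. The comparisons with and without OSM and those of the OSM effect share arrays and are not independent.

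The levels of most of these genes differed between the replicate numbers. In the fit with replicate number as a term, 7 of 9 genes were higher in replicate 3 at an adjusted p under 0.05, all but Egr1 and Sgk1, against 23.4% of all probe sets higher and 41.1% changed in either direction. The difference was 2.18 ± 0.41 for Zfp36 (limma adjusted p = 0.0127), 2.08 ± 0.32 for Zfp36l1 (adjusted p = 0.00815), 1.99 ± 0.53 for Btg2 (adjusted p = 0.0311), 1.94 ± 0.34 for Ier3 (adjusted p = 0.011), 1.50 ± 0.46 for Egr2 (adjusted p = 0.0453), 1.19 ± 0.30 for Ier2 (adjusted p = 0.0263) and 0.68 ± 0.16 for Rhob (SE, adjusted p = 0.0229). Egr1 differed by 2.01 ± 0.65 (SE, adjusted p = 0.0541) and Sgk1 by 0.70 ± 0.43 (SE, adjusted p = 0.233). Replicate 3 lay above replicate 2 in all 4 groups for 8 of 9 genes, Sgk1 being the exception, and for 33.7% of all probe sets. For 5 of 9 genes, Egr1, Ier2, Ier3, Zfp36l1 and Sgk1, the OSM difference was smaller within replicate 3 than within replicate 2 in both lines, as it was for 27.7% of all probe sets. The RNA quality controls were mixed. The actin control probe sets read higher at the 3' end than at the 5' end by 0.72 to 1.11 in replicate 3 and 0.33 to 0.53 in replicate 2. The gap of the Gapdh control probe sets ranged from 0.004 to 0.27 on the replicate 3 arrays and from 0.03 to 0.11 on those of replicate 2, with untreated Stat3 KO cells lower in replicate 3. The part of RNA quality in these values was not tested.

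**Figure D4:**
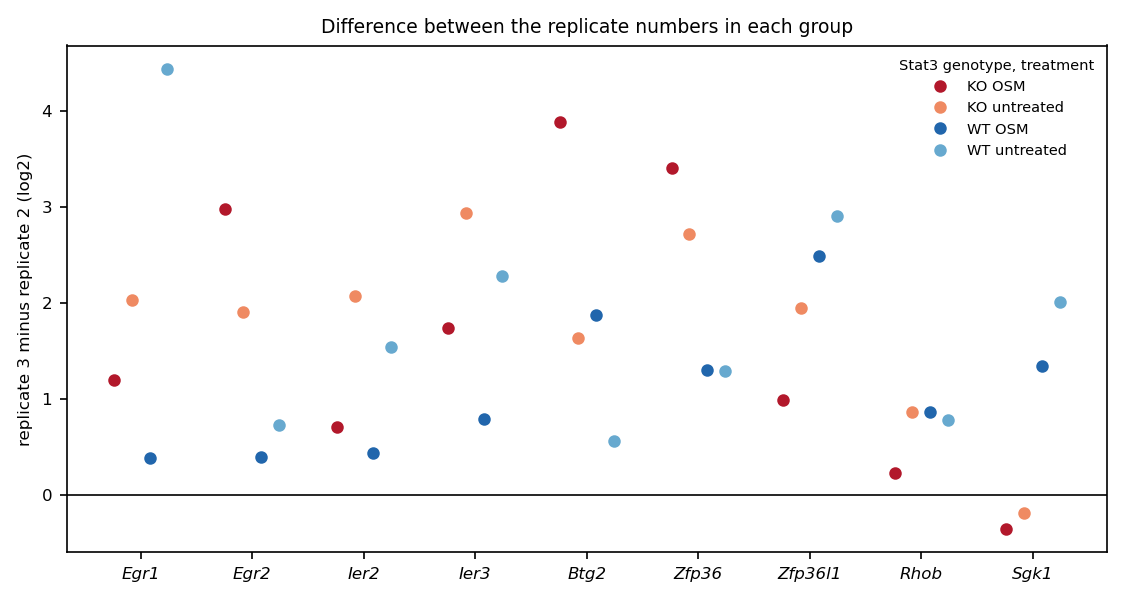
Replicate 3 minus replicate 2 (log2, vertical axis) for the 9 tested genes in each of the 4 groups. All points lie above 0 apart from Sgk1 in Stat3 KO cells, and the highest is Egr1 in untreated Stat3 WT cells at 4.44.

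Related genes were counted from lists of gene names. Of the 31 other immediate early genes tested, limma called 0 in either line at an adjusted p under 0.05. At an unadjusted p under 0.05 it found 4 higher in Stat3 KO cells, against 1.54% of all probe sets, and 6 higher in the Stat3 WT line, against 1.45% of all, with 1 lower. The median OSM difference was 1.09 in the Stat3 KO line and 0.99 in the Stat3 WT line, with 29 of 31 above 0 in the Stat3 KO line, against 3528 of 6756 probe sets, and 22 of 31 in the Stat3 WT line, against 2960 of 6756. The 4 with the largest mean difference were Socs3, the feedback inhibitor of gp130 signalling (3.71 in the Stat3 KO line and 4.89 in the Stat3 WT line), Errfi1, an inhibitor of the EGF receptor (4.37 in the Stat3 KO line and 2.88 in the Stat3 WT line), the AP-1 subunit Fosl1 (4.14 in the Stat3 KO line and 3.10 in the Stat3 WT line) and the ERK phosphatase Dusp6 (3.62 in the Stat3 KO line and 2.45 in the Stat3 WT line). Of these, Socs3 read higher by 0.81 within replicate 2 and 6.61 within replicate 3 of Stat3 KO cells, where the OSM replicate 3 array is also the one with 7.30 at the other Stat3 probe set, whose part in this was not tested. Of the 13 tested genes of the ERK and SRF pathway itself, limma called 0 in either line and found 1 of 13 lower in each at an unadjusted p under 0.05, against 2.04% of all probe sets in either direction for Stat3 KO and 1.87% for Stat3 WT, with medians of 0.00 in the Stat3 KO line and -0.11 in the Stat3 WT line. The largest differences there were those of the adaptor Gab1 (-0.99 in the Stat3 KO line and -1.13 in the Stat3 WT line), the SRF partner Elk3 (1.24 in the Stat3 KO line and -0.36 in the Stat3 WT line), the GTPase Nras (0.53 in the Stat3 KO line and 0.33 in the Stat3 WT line) and the ERK kinase Map2k1 (0.26 in the Stat3 KO line and 0.56 in the Stat3 WT line).

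Paralogs and partners of the 10 genes were counted in the same way. Of the 9 tested, limma called 0 in either line, with 1 of 9 higher in the Stat3 KO line and 0 of 9 in the Stat3 WT line at an unadjusted p under 0.05, against 1.54% of all probe sets for Stat3 KO and 1.45% for Stat3 WT. The median OSM difference was -0.10 in the Stat3 KO line and 0.09 in the Stat3 WT line. The Gem paralog Rrad differed by -1.38 in the Stat3 KO line and -1.25 in the Stat3 WT line, the Zfp36 paralog Zfp36l2 by 1.27 in the Stat3 KO line and 0.48 in the Stat3 WT line, the Btg2 paralog Btg1 by 0.97 in the Stat3 KO line and 0.66 in the Stat3 WT line, and the antiproliferative Tob1 by -0.11 in the Stat3 KO line and -1.33 in the Stat3 WT line. Nab1 and Nab2, which bind and repress Egr1 and Egr2, differed by -0.16 and -0.09 in Stat3 KO cells and by -0.58 and 0.45 in the Stat3 WT line.

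Likeness to Egr1 was measured as Pearson's r over the 8 arrays after the mean of each replicate number was subtracted, as a description of these arrays with no test. Among genes outside the 10 the highest values were those of Akap1, a mitochondrial anchor of protein kinase A (0.97), the acyl-CoA synthetase Acsl5 (0.96), the lipid kinase Pip5k1a, the kinase Mark3 and the polyamine-modifying enzyme Sat1 (0.95 each). In each of these 5 the OSM difference was largest within replicate 2 of Stat3 WT cells, at 0.42 to 1.03, as it was for Egr1, and their other differences ran from -0.08 to 0.40. Without the subtraction r was -0.24 for Acsl5 and 0.84 to 0.98 for the other 4. The replicate 2 pair of Stat3 WT arrays holds the one on which Egr1 was lowest. Among the 10 genes Ier2 was nearest to Egr1 (0.87), then Egr2 (0.78), Zfp36 (0.65), Zfp36l1 (0.60), Sgk1 (0.59), Ier3 (0.56), Rhob (0.23) and Btg2 (0.17).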

How the data were processed

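The 8 fibroblast RNA samples were biotin-labelled for Affymetrix arrays, per the labels. The authors deposited log2 values for each probe set, for which the submitters' processing notes name GCRMA and affy, whose versions were not given in the sources used here. Dim probe sets are drawn to low values by GCRMA. Of 12488 rows 66 controls were set aside, and 10833 probe sets had 1 gene symbol, 396 several and 1193 none.

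Groups come from the sample titles. Limma 3.58.1 (R 4.3.3, lmFit, eBayes with trend, two-sided) was fitted to all 8 arrays with 4 group means. It covered the 6756 probe sets at log2 5 or more on at least 2 arrays, with Benjamini-Hochberg adjustment over all of them. The fit was also run on simulated data, which held no difference between replicate numbers. That run therefore does not show how the fit behaves on arrays split by number, as these are. A gene is represented by its tested probe set with the highest mean. Differences between replicate numbers correlated at 0.59 to 0.91 between groups, which is evidence from the data, not the labels, that the numbers pair the arrays. Standard errors, p-values and intervals come from the fit without the number, unless the block is named. That fit leaves the difference between the numbers in its error. The median standard error was 0.49 without the number and 0.28 with it as a block.

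The members, gene lists and motifs were chosen with earlier results of these data known. All members are named; from each related list the 4 tested genes with the largest mean absolute OSM difference are named, Nab1 and Nab2 were added after their values were seen, and the 5 genes most like Egr1 are named. The fit of replicate number was also added after the data were seen. The number of arrays limits the precision of every value.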

Additional observations from a re-analysis of the deposited data

Results flagged for a closer look

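Rhob was the 1 of 9 tested genes with OSM differences of opposite direction in the lines within every replicate number. They were above 0 at 0.79 and 0.16 in Stat3 KO cells and below 0 at -0.61 and -0.53 in Stat3 WT cells. The same held for 9.52% of all tested probe sets, so 1 of 9 is near the share of all. The difference of the OSM effects was 1.04, and it did not pass limma (unadjusted p = 0.174, adjusted p = 1).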

How the results depend on the processing

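With replicate number as a block, which pairs the arrays, the median standard error was 0.28 in place of 0.49 and limma called 2 probe sets for OSM in Stat3 KO cells, 1 for OSM in Stat3 WT cells and 7 for Stat3 KO minus Stat3 WT with OSM, none of them a gene of the 9. The block gave adjusted p = 0.172 for the OSM difference of Egr2 in Stat3 KO cells and changed no call of the 9 genes at an adjusted p under 0.05, while at an unadjusted p it gave more of them in 4 of 5 comparisons. For Stat3 KO minus Stat3 WT with OSM, 1 probe set was called in the fit reported, and 0 without the eBayes trend, with the robust prior, with only the groups compared, with renewed quantile normalization, with median centring and with values under 5 set to 5, which called 1 for OSM in Stat3 KO cells. Leaving out each array, with or without the block, gave 0 to 2 for Stat3 KO minus Stat3 WT with OSM, 0 to 1 for OSM in Stat3 KO cells and 0 to 1 for Stat3 KO minus Stat3 WT untreated. Median centring turned the OSM difference of Zfp36l1 in Stat3 WT cells to 0.03 and Stat3 KO minus Stat3 WT with OSM for Sgk1 to -0.05. The other Egr1 probe set, under the floor, gave -0.10 for OSM in Stat3 WT cells, 0.24 for the difference of the OSM effects and -0.10 for Stat3 KO minus Stat3 WT untreated. No filter, the filter at log2 7 and the other settings turned no further value. Leaving out arrays changed no sign of the OSM differences of Egr1, Egr2, Ier2, Ier3, Zfp36 or Rhob, with or without the block. Several came closer to 0 without the block, the smallest being 0.04 for Rhob and 0.14 for Ier3 in Stat3 KO cells. The lowest values of these with the block were 0.17 for Rhob and 0.94 for Ier3. Other values changed sign without the block, with it or in both fits, and the wider range of the 2 fits is given. For the OSM difference in Stat3 KO cells these ranged from -1.44 to 2.44 for Btg2 and -0.52 to 1.43 for Zfp36l1. For the OSM difference in Stat3 WT cells these ranged from -0.43 to 1.47 for Btg2, -1.48 to 1.42 for Zfp36l1 and -0.18 to 1.83 for Sgk1. For the difference of the OSM effects these ranged from -2.76 to 1.68 for Egr1, -0.41 to 1.66 for Ier2, -1.77 to 1.17 for Ier3, -1.96 to 1.92 for Btg2, -1.31 to 2.1 for Zfp36, -0.97 to 1.94 for Zfp36l1 and -0.74 to 1.27 for Sgk1. For Stat3 KO minus Stat3 WT with OSM these ranged from -1.6 to 0.14 for Ier3, -1.57 to 2.31 for Btg2, -1.12 to 2.28 for Zfp36, -0.52 to 1.96 for Zfp36l1 and -0.66 to 0.76 for Sgk1. For Stat3 KO minus Stat3 WT untreated these ranged from -0.2 to 1.71 for Egr2, -0.7 to 1.37 for Ier2, -1.89 to 1.04 for Ier3, -0.56 to 1.34 for Btg2, -1.17 to 1.54 for Zfp36, -1.22 to 1.69 for Zfp36l1, -0.58 to 0.28 for Rhob and -1.22 to 0.79 for Sgk1. Some of these values kept their sign with the block. Stat3 KO minus Stat3 WT untreated was then 0.25 to 1.27 for Egr2 and -0.27 to -0.03 for Rhob. The difference of the OSM effects was then 0.04 to 1.21 for Ier2. The cause of the changes of sign was not tested.

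With 2 arrays a group and 4 residual degrees of freedom, differences of several log2 units missed the threshold. A lone array left in a group was assumed to vary like the other groups. Values near the floor are shrunken by GCRMA, so folds against them are not exact, and Gem could not be measured.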
